A study of Mus musculus with 12 samples.

Results

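The 27 genes described here are those of cholesterol synthesis and its control by SREBP2: the enzymes that carry acetyl-CoA units to cholesterol, the proteins that activate or retain SREBP2, and a pair of sterol-handling targets. They were given as a list of symbols and matched to array probes through RefSeq transcripts. Probes were found for 26 of the 27, with 48 probes in all, and all 26 genes were tested among 26397. Acat2, cytosolic acetoacetyl-CoA thiolase, had no matched probe and was not analysed here. RNA came from the livers of 12 male mice aged 7 weeks, 3 in each of 4 groups, on one-colour Agilent arrays with 1 array a mouse. Wild-type mice and mice with both copies of Akp3 lost (Akp3-/-, the gene of an intestinal alkaline phosphatase) were dosed by mouth daily for 14 days. They received either vehicle (carboxymethylcellulose sodium salt at 5 g/L) or 600 mg/kg of body weight per day of IIAEK, a pentapeptide named by the one-letter codes of its residues, which the labels call cholesterol-lowering. Before collection of the liver every group was kept without food for 8 h. The labels name no strain, and the knockout is given as a whole-animal one, with no promoter or cell type that restricts it.

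Cholesterol is made from acetyl-CoA through mevalonate, isoprenoid diphosphates, squalene and lanosterol, and the liver is a main site of this synthesis. SREBP2, the product of Srebf2, is a membrane-bound transcription factor of the endoplasmic reticulum. Scap escorts it to the Golgi when sterols are low, where the proteases encoded by Mbtps1 and Mbtps2 release its active part, and the Insig proteins hold Scap back when sterols are high. Active SREBP2 binds sterol regulatory elements, often next to sites of the factor NF-Y, and raises the transcription of most enzymes of the pathway.

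The 4 promoters shown include the 3 members with the smallest unadjusted p for IIAEK in wild type (Hmgcs1, Insig1 and Idi1) and, for contrast, Mvk, whose level did not share their direction. Each is the 250 bases before the transcription start from RefSeq's GRCm38.p6 annotation, on the plus strand: chr13:119690101-119690350 for Hmgcs1, chr5:28071162-28071411 for Insig1, chr13:8885356-8885605 for Idi1 and chr5:114444019-114444268 for Mvk. The array files use another build (mm9), so no coordinate was carried between them. Capitals mark matches on either strand to a sterol regulatory element (TCACNCCAC) or to the NF-Y core CCAAT, which reads ATTGG on the other strand.
Hmgcs1: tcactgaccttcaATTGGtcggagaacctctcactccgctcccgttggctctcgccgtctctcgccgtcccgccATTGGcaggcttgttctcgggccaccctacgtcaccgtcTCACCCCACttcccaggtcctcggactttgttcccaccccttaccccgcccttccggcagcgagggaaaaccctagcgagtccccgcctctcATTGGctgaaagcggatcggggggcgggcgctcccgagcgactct
Insig1: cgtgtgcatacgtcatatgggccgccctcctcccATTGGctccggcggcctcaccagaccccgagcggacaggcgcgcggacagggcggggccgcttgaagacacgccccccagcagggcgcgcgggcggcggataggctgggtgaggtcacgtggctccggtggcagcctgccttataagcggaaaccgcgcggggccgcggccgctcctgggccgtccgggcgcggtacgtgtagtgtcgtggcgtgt
Idi1: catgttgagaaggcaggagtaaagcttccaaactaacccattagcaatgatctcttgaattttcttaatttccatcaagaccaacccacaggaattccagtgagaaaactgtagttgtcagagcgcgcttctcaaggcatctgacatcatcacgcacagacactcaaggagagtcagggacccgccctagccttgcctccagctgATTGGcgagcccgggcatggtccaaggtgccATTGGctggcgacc
Mvk: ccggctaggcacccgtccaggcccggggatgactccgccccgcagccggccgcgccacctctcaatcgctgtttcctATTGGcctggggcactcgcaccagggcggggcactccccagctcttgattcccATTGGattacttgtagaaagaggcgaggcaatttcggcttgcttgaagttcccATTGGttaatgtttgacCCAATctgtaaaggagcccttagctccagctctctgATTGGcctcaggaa

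The Hmgcs1 window held 1 match to the sterol regulatory element, which begins at position -137 from the start, and 3 to the NF-Y core. The Mvk window held 5 NF-Y matches, Idi1 held 2 and Insig1 held 1. RefSeq windows (300 bases, 50 of them after the start) were matched for 23 of the 27 members, and Fdps, Fdft1, Sqle and Stard4 had none in the table. The NF-Y core was found in 19 of the 23 (82.6%), against 41.1% of 27025 genes with a window, and Acat2, Mbtps1, Mbtps2 and Scap lacked it. The sterol regulatory element in this spelling was found in 1 of the 23 (4.35%), against 1.44% of all genes. These are letter matches in a short window and say nothing of binding in these livers.

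Values are log2 signals from the scanner with each array's own 75th percentile subtracted, so 0 is the level that 75 percent of spots lie below. Because probes differ in brightness, a level is compared between arrays and never between genes. The 75th percentile of the signal ran from 453.6 to 758.5 and 56.8% to 61.9% of probes were well above background. The 48 member probes were well above background on 12 of 12 arrays and no spot was saturated. Akp3 itself could not be read in liver: its 2 probes were well above background on 0 of 12 arrays, so they check no genotype label. All 5 hepatocyte markers (Alb, Apoa1, Ttr, Tat and Cps1) were well above background on 12 of 12 arrays. The labels do not say whether mice were littermates or cage mates, so each p-value measures the spread between these 12 samples.

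The arrays did not fall into their 4 groups. On the first principal component (55.3% of the variance) 4 vehicle arrays, replicates 2 and 3 of wild type and replicates 1 and 3 of knockout, lay at 74.1 to 88.1 and the other 8 arrays at -57.3 to -11.3. The cholesterol genes followed that split. The median over the 26 members, each centred on its own 12-array mean, was -0.48 to -0.31 on the 4 arrays and 0.01 to 0.30 on the other 8. As a description with no test, 12 of the 26 members lay entirely lower on the 4 arrays, which was so for 12.2% of all genes tested, and 2 members (Mvk and Mbtps2) lay entirely higher, against 10.6%. The 12 were Hmgcs1, Pmvk, Idi1, Fdps, Fdft1, Cyp51, Tm7sf2, Nsdhl, Ebp, Sc5d, Insig1 and Scap. The other 2 vehicle arrays, wild type 1 and knockout 2, carried these genes at levels within or near those of IIAEK arrays.

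**Figure D1:**
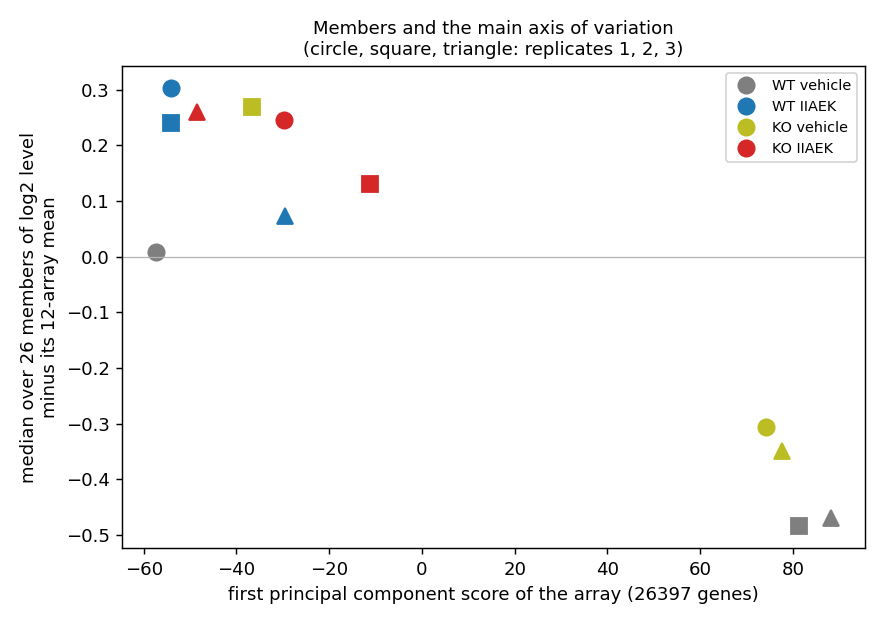
Each point is 1 array, with its score on the first principal component of all genes tested (x axis, arbitrary units) against the median over 26 members of the log2 level minus its 12-array mean (y axis); WT is wild type, KO is Akp3 knockout. The 4 vehicle arrays at scores of 74.1 to 88.1 have the lowest members' medians, -0.48 to -0.31. Knockout vehicle 2 sits among the IIAEK arrays, and wild-type vehicle 1, at -57.3 and 0.01, lies near them but outside their range.

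Markers of other cells also differed between these 4 arrays and the other 8. All 6 macrophage markers and all 6 fibroblast and stellate markers, well above background on 12 of 12 arrays, had higher means on the 4. The summed macrophage level was 6.95 to 7.29 there and 5.34 to 6.38 on the other 8, and the summed fibroblast level 7.25 to 7.76 against 6.17 to 6.84. The 5 bile duct markers summed to 0.24 to 0.64 against -1.06 to -0.43, with Krt7 above background on 10 of 12 arrays. The summed level of the 5 endothelial markers was lower, at 5.00 to 5.22 against 5.44 to 5.68. Single endothelial markers differed in direction: 3 had lower means on the 4 arrays and 2 higher. Lyve1 read 1.59 to 1.89 on the 4 and -0.36 to 0.50 on the other 8. The 5 hepatocyte markers summed to 9.85 to 10.25 against 10.21 to 10.81. The summed level of the 4 red blood cell markers overlapped, at 9.07 to 9.40 against 7.54 to 9.62. Single red blood cell markers differed in direction: 3 had higher means on the 4 arrays and 1, Alas2, lower. Alas2 read 1.56 to 1.76 on the 4 and 2.45 to 3.91 on the other 8. Pancreas markers other than Cela1 were highest on wild-type vehicle 1, where the 8 markers had a median of 4.48 above their 12-array mean. That median was 1.52 on wild-type IIAEK 1 and -0.75 to -0.20 on the other 10 arrays, and Cpb1, Pnlip and Prss2 were above background on 2 of 12 arrays each. The 6 small intestine markers had a median of 2.65 on wild-type vehicle 2, against -0.65 to 0.57 on the other arrays. Vil1, Sis, Muc2 and Cdh17 were highest there, with Cdh17 above background on 1 of 12. Fabp2 and Lgals4, at 6.51 and 2.76 on wild-type vehicle 2, lay within the range of the other arrays. The part of any of these cells in the values below was not tested. In whole liver RNA, fewer cells of a type and less RNA per cell cannot be told apart.

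In wild-type liver, most cholesterol genes were higher after IIAEK than after vehicle, but none passed the test. Of the 26 members, 19 had a log2 change above 0, against 53.7% of all genes, and the median change was 0.52, against 0.03 over all genes. In limma with Benjamini-Hochberg adjustment over 26397 genes, 0 of the 26 passed 0.05 and 1 gene of the table did (0.00379%), and the smallest adjusted p of a member was 0.395. At an unadjusted p under 0.05, 8 members were higher (5.75% of all genes) and 0 lower (6.81%). The vehicle and IIAEK mice did not overlap for 9 members, all higher (7.08% of all genes were higher without overlap and 5.85% lower): Hmgcs1, Idi1, Fdps, Fdft1, Cyp51, Nsdhl, Sc5d, Insig1 and Mbtps1.

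The mevalonate arm had 5 of its 7 tested genes above 0 in wild type, with a median log2 change of 0.82. Hmgcs1, which condenses acetyl-CoA with acetoacetyl-CoA, had levels of 4.18, 2.68 and 2.87 in the 3 wild-type vehicle mice and 4.53, 4.96 and 5.04 in the 3 IIAEK mice. Every IIAEK mouse lay above every vehicle mouse, the nearest of which was the one with the highest pancreas markers. The log2 change was 1.60 (SE 0.45, n = 3 and 3; limma adjusted p = 0.395), a 3.04-fold higher signal with a 95% interval of 0.62 to 2.59 on the log2 scale. Idi1, the isopentenyl diphosphate isomerase, read 1.59, 1.40 and 0.52 in vehicle and 2.72, 2.17 and 2.26 in IIAEK. Its groups did not overlap either, and the change was 1.21 (SE 0.43, limma adjusted p = 0.395). Phosphomevalonate kinase (Pmvk) changed by 0.82 and farnesyl diphosphate synthase (Fdps) by 0.95, and Mvd, which decarboxylates mevalonate diphosphate, by 0.13. Mevalonate kinase (Mvk) was at -0.25, but its dimmer probe read 0.10. Ggps1, which makes geranylgeranyl diphosphate for protein prenylation, was at -0.05.

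The 3 enzymes from farnesyl diphosphate to lanosterol differed in sign. Squalene synthase (Fdft1) was 0.57 higher with non-overlapping groups, and lanosterol synthase (Lss) was 0.19 higher. Squalene epoxidase (Sqle), a rate-limiting enzyme of the sterol arm, ran the other way: its levels were -4.51, -3.45 and -2.88 in vehicle and -4.59, -4.04 and -4.88 in IIAEK. One vehicle mouse lay among the IIAEK mice. The change was -0.89 (SE 0.43, limma adjusted p = 0.401), from a single dim probe whose signal was well above background on every array.

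After lanosterol, 6 of 8 enzymes were above 0 in wild type, with a median of 0.57. The sterol C14 reductase Tm7sf2 had the widest span of any member and was singled out after its values were seen. It read 4.51, 1.38 and 1.38 in wild-type vehicle, 4.76, 4.51 and 3.92 in wild-type IIAEK, 1.5, 4.75 and 1.55 in knockout vehicle, and 3.96, 3.96 and 4.64 in knockout IIAEK. The levels formed 2 ranges, 1.38 to 1.55 on the 4 vehicle arrays that stood apart and 3.92 to 4.76 on the other 8. A second, dimmer Tm7sf2 probe gave nearly the same IIAEK changes, 2.01 against 1.97 in wild type and 1.70 against 1.59 in knockout. Without the 4 arrays the changes were -0.11 in wild type and -0.56 in knockout. Sterol 14-demethylase (Cyp51) was 0.82 higher, the dehydrogenase Nsdhl 0.76, the isomerase Ebp 0.60, the desaturase Sc5d 0.54 and the reductase Hsd17b7 0.37. Msmo1, a methyl sterol oxidase, was at -0.05, and Dhcr7, which performs a last reduction to cholesterol, at -0.21.

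**Figure D2:**
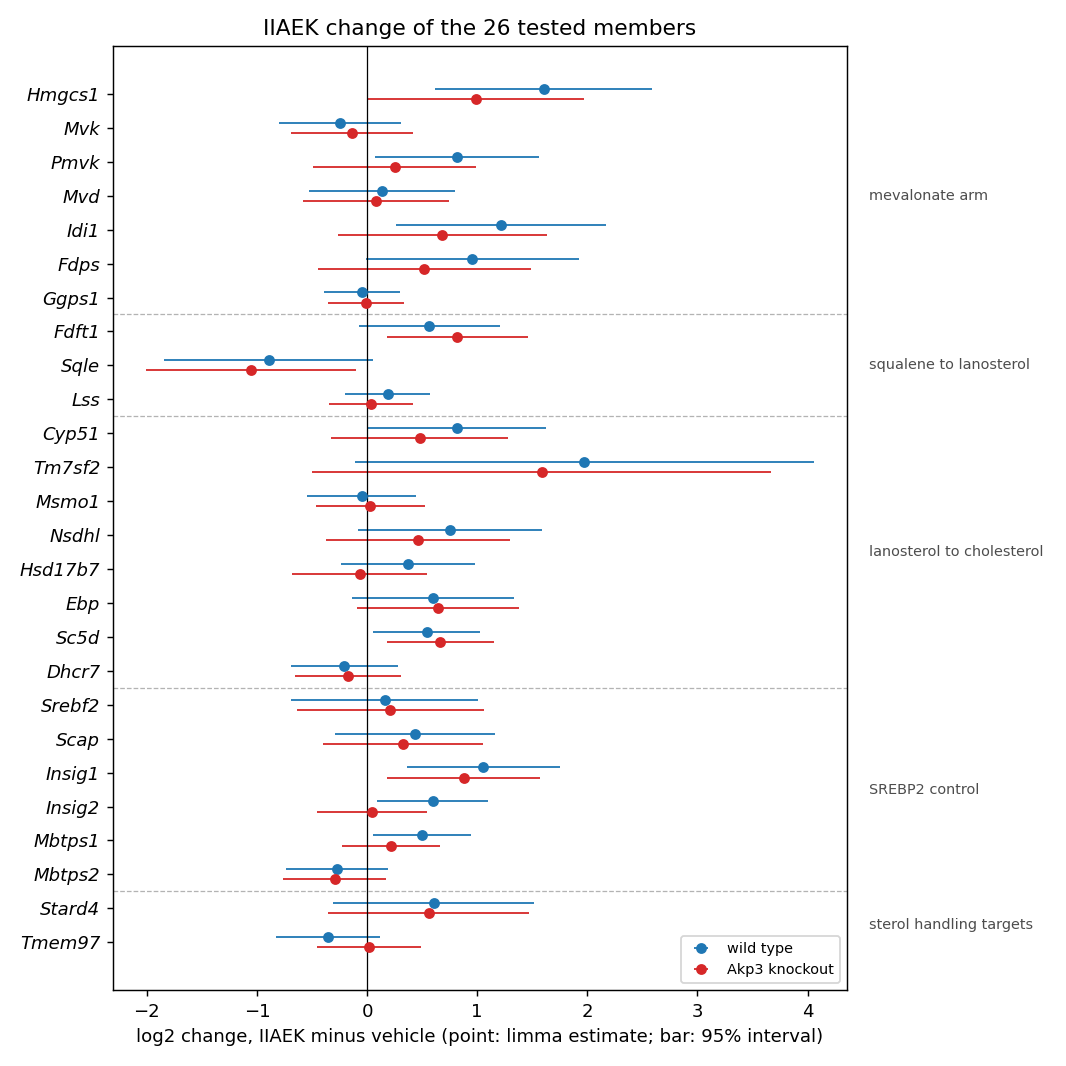
Log2 change with IIAEK (x axis) of the 26 tested members (y axis, in pathway order with roles at the right) in wild type (blue) and Akp3 knockout (red); points are limma estimates and bars their unadjusted 95% intervals. Hmgcs1 (1.60), Idi1 (1.21), Insig1 (1.06) and Tm7sf2 (1.97) have the highest wild-type values, and Sqle (-0.89) the lowest.

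Among the genes that control SREBP2, Insig1 had the smallest p in wild type. Insig1, which retains Scap in the endoplasmic reticulum and is itself an SREBP target, read -1.48, -2.12 and -2.16 in vehicle and -0.75, -0.98 and -0.86 in IIAEK. Its groups did not overlap, and the change was 1.06 (SE 0.31, limma adjusted p = 0.395). Insig2, its paralog, read 6.02, 5.38 and 5.24 in vehicle and 6.35, 5.95 and 6.11 in IIAEK. One vehicle mouse lay within the IIAEK range, and the change was 0.59 (SE 0.23, limma adjusted p = 0.395), with the other 2 probes at 0.53 and 1.0.

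The transcription factor gene itself was scattered. Srebf2 read -1.83, -3.72 and -3.22 in wild-type vehicle and -2.97, -2.61 and -2.71 in wild-type IIAEK. The vehicle mice lay on both sides of all 3 IIAEK mice, and the change was 0.16 (SE 0.39, limma adjusted p = 0.866). Scap read 3.99, 2.57 and 3.03 in vehicle and 3.59, 3.84 and 3.46 in IIAEK, and its change was 0.43 (SE 0.33, limma adjusted p = 0.547), again with vehicle mice on both sides. The site-1 protease gene Mbtps1 was 0.50 higher with non-overlapping groups, and the site-2 protease gene Mbtps2 was at -0.27. Of the sterol-handling targets, the sterol carrier Stard4 was at 0.61 and Tmem97, a binding partner of the lysosomal cholesterol transporter NPC1, at -0.35.

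**Figure D3:**
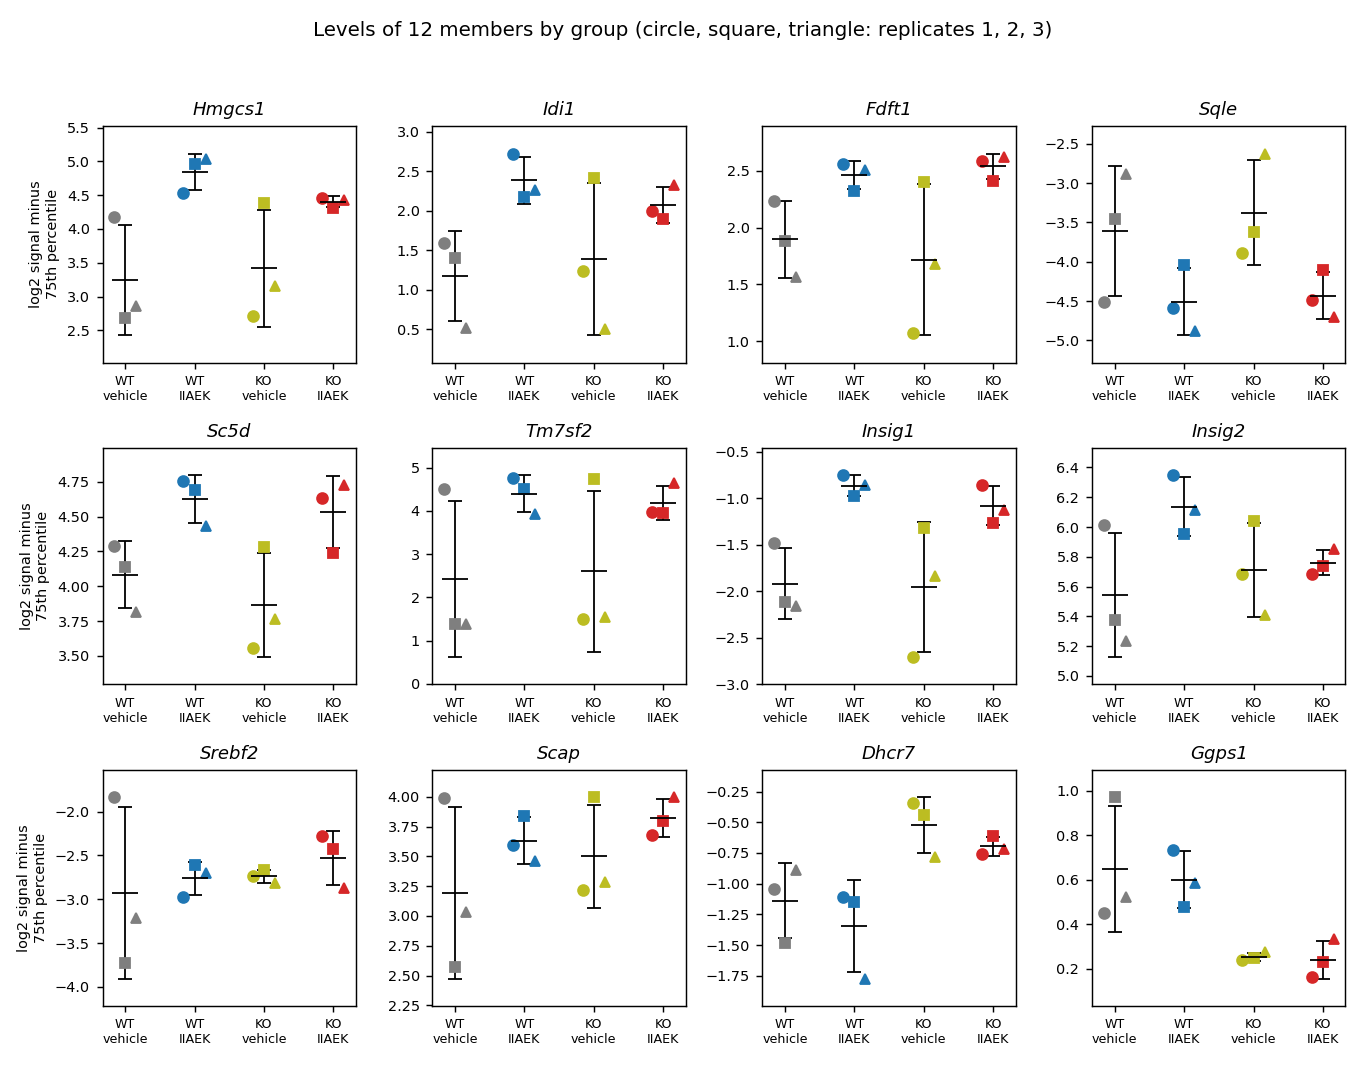
Log2 signal minus the array's 75th percentile (y axis, scaled per gene) of 12 members in the 4 groups (x axis; WT is wild type, KO is Akp3 knockout); symbols are mice, with circle, square and triangle for replicates 1, 2 and 3, and bars are the mean and SD. Vehicle mice spread more widely than IIAEK mice for most genes, and Tm7sf2 lies at 1.38 to 1.55 in 4 vehicle mice and at 3.92 to 4.76 in the other 8 mice.

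The wild-type comparison turned on single arrays. Wild-type vehicle 1 was the array with the highest pancreas markers, and wild-type IIAEK 1 had the next highest. It was also the only wild-type vehicle array outside the 4 that stood apart. Without wild-type vehicle 1 (wild-type IIAEK 1 stayed in), the fit called 9 members: 7 higher (6.5% of all genes) and 2 lower (8.31%). The 7 were Hmgcs1 at 2.07 (adjusted p = 0.0297), Pmvk at 1.18, Tm7sf2 at 3.01, Ebp at 1.0, Insig1 at 1.28, Insig2 at 0.83 and Mbtps1 at 0.68, and the 2 were Sqle at -1.34 (adjusted p = 0.0445) and Mbtps2 at -0.54. With the 4 separate vehicle arrays left out (1 vehicle mouse a genotype remains), 0 members were called, the median change was 0.15 and Hmgcs1 was at 0.67, Idi1 at 0.79, Insig1 at 0.61, Sqle at 0.00 and Srebf2 at -0.93.

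In Akp3 knockout liver, 20 of 26 members were above 0 with IIAEK, against 56.1% of all genes, with a median change of 0.23 against 0.05. None of the 26 passed, nor did any gene of the table (0%), and the smallest adjusted p of a member in limma was 0.656. At an unadjusted p under 0.05, Hmgcs1, Fdft1, Sc5d and Insig1 were higher (4.01% of all genes) and Sqle lower (2.45%). Groups did not overlap for 2 higher members, Fdft1 and Insig1 (9.53%), and 2 lower, Sqle and Mbtps2 (5.91%). These shares are 7.69% of the members each way, near the background.

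Sc5d had the smallest p in knockout. It read 3.56, 4.28 and 3.76 in knockout vehicle and 4.63, 4.24 and 4.73 in knockout IIAEK. One vehicle mouse lay just above the lowest IIAEK mouse, and the change was 0.67 (SE 0.22, n = 3 and 3; limma adjusted p = 0.656). In wild type Sc5d read 4.29, 4.14 and 3.82 in vehicle and 4.76, 4.69 and 4.43 in IIAEK, without overlap. Fdft1 read 1.07, 2.40 and 1.68 in knockout vehicle and 2.59, 2.41 and 2.62 in knockout IIAEK, and the change was 0.82 (SE 0.29, limma adjusted p = 0.656). The groups barely cleared each other, with the highest vehicle mouse at 2.40 and the lowest IIAEK mouse at 2.41. In wild type Fdft1 read 2.24, 1.88 and 1.57 in vehicle and 2.56, 2.32 and 2.50 in IIAEK.

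Hmgcs1 read 2.71, 4.38 and 3.16 in knockout vehicle and 4.46, 4.32 and 4.44 in knockout IIAEK, so 1 vehicle mouse lay within the IIAEK range. Its change was 0.99 (SE 0.45, limma adjusted p = 0.656). Insig1 read -2.71, -1.32 and -1.84 in vehicle and -0.85, -1.26 and -1.13 in IIAEK, without overlap, and changed by 0.88 (SE 0.31, limma adjusted p = 0.656). Sqle read -3.89, -3.62 and -2.62 in vehicle and -4.48, -4.10 and -4.70 in IIAEK. All 3 IIAEK mice were below all 3 vehicle mice, and the change was -1.05 (SE 0.43, limma adjusted p = 0.656). With normexp background correction the Sqle changes were smaller, -0.34 in knockout and -0.33 in wild type.

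Insig2, Srebf2 and Scap had IIAEK changes in knockout smaller than their standard errors, which pool the spread of all 4 groups. For Srebf2 the SD was 0.98 in wild-type vehicle, 0.07 in knockout vehicle and 0.31 in knockout IIAEK, so its SE is not that of the knockout mice alone. Insig2 read 5.69, 6.04 and 5.41 in vehicle and 5.69, 5.74 and 5.85 in IIAEK, a change of 0.05 (SE 0.23). Srebf2 read -2.73, -2.66 and -2.81 in vehicle and -2.27, -2.43 and -2.87 in IIAEK, a change of 0.21 (SE 0.39). Scap read 3.22, 4.0 and 3.28 in vehicle and 3.68, 3.79 and 4.0 in IIAEK, a change of 0.32 (SE 0.33). All 3 genes overlapped between the groups. Idi1 read 1.24, 2.42 and 0.51 in vehicle and 2.0, 1.89 and 2.32 in IIAEK, with overlap, and changed by 0.68. Without the 4 arrays that stood apart the members' median in knockout turned to -0.11 and 10 of 26 were above 0, with Hmgcs1 at 0.02, Fdft1 at 0.14, Insig1 at 0.24, Sc5d at 0.25 and Sqle at -0.81.

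Whether the IIAEK response differed by genotype was tested as an interaction, which uses all 12 arrays. The knockout change was lower than the wild-type change for 17 of the 26 members, and the median difference was -0.13, against 0.02 over all genes (54.1% of all genes were above 0). No member passed in limma (adjusted p = 1.0 for the smallest) and no gene of the table did (0%). At an unadjusted p under 0.05, 0 members were higher (1% of all genes) and 0 lower (0.61%). Insig2 had the smallest unadjusted p of a member: its difference was -0.55 (SE 0.32), with a 95% interval of -1.26 to 0.16. For Hmgcs1 the difference was -0.61 (interval -2.0 to 0.78), for Insig1 -0.18 (-1.16 to 0.80), for Sqle -0.16 (-1.51 to 1.19) and for Srebf2 0.05 (-1.15 to 1.25). These intervals are wide on both sides of 0, so neither equal nor unequal responses were shown.

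Averaged over both genotypes, 19 of 26 members were above 0 with IIAEK (55.6% of all genes), with a median of 0.37 against 0.04. At an unadjusted p under 0.05, 12 members were higher, against 11.8% of all genes, and Sqle alone was lower, against 11%. The 12 were Hmgcs1, Pmvk, Idi1, Fdps, Fdft1, Cyp51, Tm7sf2, Nsdhl, Ebp, Sc5d, Insig1 and Mbtps1, of which 11 are among the 12 that lay lower on the arrays that stood apart. None of the 26 and none of all genes passed (0%), and the smallest adjusted p in limma was 0.181, a value that Hmgcs1 (1.30, SE 0.31) and Insig1 (0.97, SE 0.22) shared with Idi1, Fdft1, Sqle and Sc5d. Leaving out wild-type vehicle 1 or knockout vehicle 2 left that genotype only with vehicle arrays that stood apart. Without wild-type vehicle 1 the fit called 13 members higher (12.6% of all genes) and 2 lower (12%). Without knockout vehicle 2 the fit called 9 higher (4.65%) and 0 lower (4.91%). Without the 4 arrays that stood apart it called 0 and the median was -0.04.

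Under vehicle, most members were slightly higher in knockout than in wild type, and none passed. The comparison shares its vehicle mice with both IIAEK comparisons. Of the 26 members, 19 were above 0 in knockout, against 40.9% of all genes, with a median of 0.18 against -0.07. Without knockout vehicle 2 that median was -0.0295. In limma 0 of the 26 passed (1 gene of the table did, 0.00379%), and the smallest adjusted p of a member was 0.710. At an unadjusted p under 0.05, Lss and Dhcr7 were higher (2.55% of all genes) and Ggps1 lower (4.33%), and the same 3 were the members without overlap (2.85% and 5.8%). Lss read -0.61, -1.15 and -0.58 in wild-type vehicle and -0.22, -0.17 and -0.34 in knockout vehicle, a difference of 0.54 (SE 0.17, limma adjusted p = 0.710). Dhcr7 read -1.04, -1.48 and -0.89 in wild type and -0.34, -0.44 and -0.78 in knockout, a difference of 0.62 (SE 0.22, limma adjusted p = 0.710). Ggps1 read 0.45, 0.97 and 0.52 in wild type and 0.24, 0.25 and 0.27 in knockout, a difference of -0.40 (SE 0.16, limma adjusted p = 0.710).

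The same 3 genes stood in the same order under IIAEK, in mice that the vehicle comparison did not use. Lss read -0.79, -0.39 and -0.59 in wild-type IIAEK and -0.21, -0.22 and -0.18 in knockout IIAEK, a difference of 0.39 (SE 0.17). Dhcr7 read -1.11, -1.15 and -1.77 against -0.76, -0.61 and -0.72, a difference of 0.65 (SE 0.22). Ggps1 read 0.73, 0.48 and 0.59 against 0.16, 0.23 and 0.33, a difference of -0.36 (SE 0.16). None of the 3 overlapped between genotypes in either treatment, which held for 1.14% of all genes higher in both and 1.99% lower in both. None passed in limma (adjusted p = 0.625 for each). The 3 Lss probes were all higher in knockout vehicle (0.54, 0.28 and 0.64), the 5 Ggps1 probes were all lower (-0.40 to -0.23), and Dhcr7 had 1 probe.

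For the members as a whole, knockout and wild type under IIAEK were balanced, with 13 above 0 and 13 below (47.1% of all genes were above) and a median of 0.03 against -0.02. None passed, against 2 genes of the table (0.00758%). At an unadjusted p under 0.05, Lss, Dhcr7 and Tmem97 were higher (3.35% of all genes) and Ggps1 lower (4.53%). The same 3 were higher without overlap (12.9%), and Hmgcs1, Cyp51, Insig2 and Ggps1 lower without overlap (14.9%). Tmem97 read 2.29, 2.48 and 1.81 in wild-type IIAEK and 2.87, 2.68 and 2.58 in knockout IIAEK, a difference of 0.52 (SE 0.21, limma adjusted p = 0.625). Hmgcs1 was 0.44 lower in knockout on this comparison (log2 difference -0.44, SE 0.45). That SE pools all 4 groups, and the vehicle mice, which are not compared here, spread more widely. The Hmgcs1 SD was 0.81 in wild-type vehicle and 0.87 in knockout vehicle, against 0.27 in wild-type IIAEK and 0.08 in knockout IIAEK.

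Replicate 1 of every group was on slide 1 and replicates 2 and 3 on slide 2, and each slide had its own scan day. The members' median IIAEK change in wild type was 0.33 on slide 1 and 0.71 on slide 2, and 15 of 26 members kept their sign, against 43.7% of all genes. Hmgcs1 was at 0.36 and 2.23, Idi1 at 1.13 and 1.26, Insig1 at 0.72 and 1.22, Sqle at -0.09 and -1.30, and Srebf2 at -1.14 and 0.81. In knockout the medians were 0.47 and 0.09 with 22 of 26 signs kept (73.4% of all genes), and Hmgcs1 was at 1.76 and 0.61. For knockout against wild type under vehicle the medians turned from -0.46 to 0.51 and 6 of 26 members kept their sign (39.3%). With 1 array a group, slide 1 has no replicate.

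**Figure D4:**
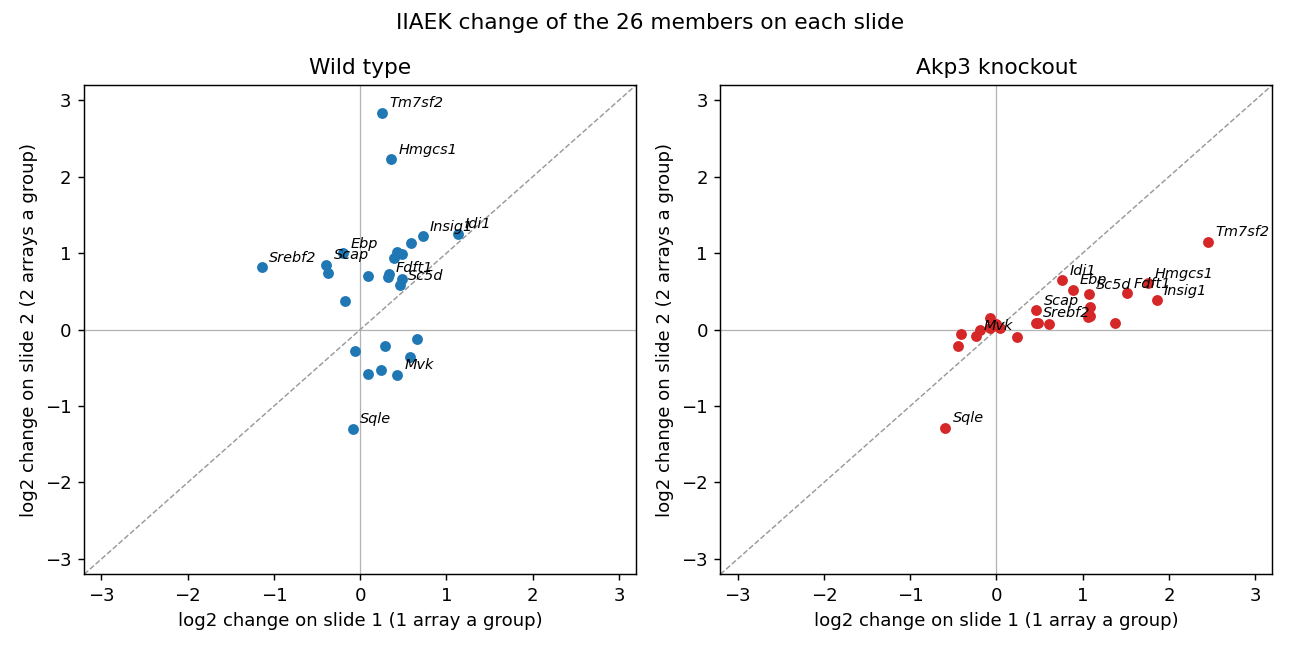
Each point is 1 of the 26 members, with its log2 change with IIAEK on slide 1 (x axis, 1 array a group) and on slide 2 (y axis, mean of 2 arrays a group), in wild type (left) and Akp3 knockout (right); the dashed line marks equal values. In wild type Hmgcs1 (0.36 and 2.23) and Srebf2 (-1.14 and 0.81) lie far from the line, and in knockout most points lie below it at positive values.

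Spread within groups, pooled over the 4 groups for each gene, set the precision of these comparisons. Each gene therefore had the same SE under vehicle and under IIAEK, although its SDs could differ. The median SD of the 26 members was 0.45 in wild-type vehicle, 0.23 in wild-type IIAEK, 0.44 in knockout vehicle and 0.15 in knockout IIAEK (n = 3 each), and over all genes it was 0.36, 0.19, 0.27 and 0.16. The SD was smaller in wild-type IIAEK than in wild-type vehicle for 25 of 26 members and smaller in knockout IIAEK than in knockout vehicle for 21. The signs of a gene's probes mostly matched: of 15 members with several probes, all probes had 1 sign in 12 for IIAEK in wild type (not Ggps1, Msmo1 and Mvk), in 13 for IIAEK in knockout (not Mvk and Tmem97) and in 12 for knockout under vehicle (not Cyp51, Mbtps1 and Mbtps2). The other 11 members, among them Hmgcs1, Idi1, Insig1, Sqle, Srebf2 and Scap, had 1 probe each.

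Neighbouring pathways were read from 9 further lists, and 0 of their genes passed in any comparison. The 15 genes of SREBP1 lipogenesis, fatty acid synthesis under the sister factor, were all above 0 with IIAEK in both genotypes, with median log2 changes of 0.83 in wild type and 0.64 in knockout. Their medians per array, centred as above, were -1.12 to -0.67 on the 4 arrays that stood apart and 0.09 to 0.71 on the other 8. Pnpla3, a lipid droplet protein, was at 1.52 (SE 0.42) in wild type, where it was well above background in 1 of 3 vehicle mice, and Aacs, acetoacetyl-CoA synthetase, at 1.70 (SE 0.50) in knockout. Under vehicle 13 of the 15 were above 0 in knockout against wild type, with a median of 0.36.

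Of 13 genes of the isoprenoid branch, 11 were above 0 with IIAEK in wild type and 8 in knockout (medians 0.13 and 0.03). Of 11 genes of sterol-regulated degradation and retention, 8 and 5 were above 0 (0.20 and -0.03). Paqr3, which tethers Scap and SREBP at the Golgi, had the smallest p there, with 0.71 (SE 0.21) in wild type and -0.29 in knockout. Of 11 COPII coat genes, which serve the vesicles that carry Scap, 8 and 5 were above 0 (0.04 and -0.01). Of 11 genes of sterol transport and esterification, 4 and 6 were above 0 (-0.03 and 0.02), with Gramd1b, a sterol transfer protein, at -1.65 (SE 0.60) in wild type and -1.02 in knockout. Of 9 genes listed for LXR and sterol export, not all of them exporters, 5 and 5 were above 0 (0.07 and 0.15). The exporter Abca1 was at -0.63 (SE 0.21) in wild type. Gramd1b and Abca1 also followed the split of the arrays. Gramd1b read -0.06 to 0.44 on the 4 vehicle arrays that stood apart and -2.93 to -1.09 on the other 8. Abca1 read 3.79 to 4.16 on the 4 and 3.03 to 3.60 on the other 8.

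Of 4 bile acid synthesis genes, 2 were above 0 in wild type and 3 in knockout (0.17 and 0.90), and the medians hide wide values. Cyp7a1, which performs the first step from cholesterol toward bile acids, read -0.60, 0.35 and -2.52 in wild-type vehicle and -6.20, -4.19 and -7.65 in wild-type IIAEK. Every IIAEK mouse lay below every vehicle mouse, and the change was -5.09 (SE 1.27, limma adjusted p = 0.395). Its probe was well above background in 3 of 3 vehicle mice and 1 of 3 IIAEK mice. In knockout it read -0.55, -5.66 and -3.47 in vehicle and -4.60, -2.65 and -2.99 in IIAEK, with overlap and a change of -0.18. Cyp8b1, needed for cholic acid, was at -0.23 in wild type and 3.47 (SE 1.96) in knockout, with its probe well above background on 6 of 12 arrays.

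Feeding state and time of day both move hepatic sterol synthesis, so lists for each were read as well. Of 9 fasting genes, 5 were above 0 with IIAEK in wild type and 1 in knockout (medians 0.06 and -0.31), and Igfbp1, a liver gene raised by fasting, was at -1.81 (SE 0.59) and -2.90 (SE 0.59). Of 12 clock genes, 5 and 9 were above 0 (-0.40 and 0.46), with Ciart, a repressor of the clock, at -2.63 (SE 0.76) in wild type and 0.77 in knockout. Clock, a core activator, was at 0.81 (SE 0.25) and 0.28. Ciart was well above background in 1 of 3 wild-type IIAEK mice and in 3 of 3 mice of each other group. The medians of these lists per array were -0.27 to 0.43 (clock) and -0.52 to 0.43 (fasting) on the 4 arrays that stood apart. On the other 8 they were -0.52 to 0.84 and -0.55 to 0.46. Single genes could differ from these medians: Igfbp1 read 7.21 to 8.32 on the 4 arrays and 3.65 to 6.44 on the other 8. Of the 9 fasting genes, 3 had higher means on the 4 arrays and 6 lower. The hour at which livers were taken was not given in the labels, and its part in the values was not tested.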

How the data were processed

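Per the file headers, each array was scanned with 1 colour and quantified in Agilent Feature Extraction (version 10.7.3.1), and the deposited processed signal is an intensity per spot after background subtraction. The deposited series table holds log2 values, which matched the scanner values shifted to the 75th percentile and centred per probe over the arrays (r 0.9997 to 0.9999); its column medians ran from -0.154 to 0.171. Non-uniform and control spots were left out, spots of a probe averaged, and log2 taken minus the array's 75th percentile over 59305 non-control spots. A gene was its brightest probe, tested where every array of some group had it well above background. limma 3.58.1 (R 4.3.3) fitted 1 mean per group to 12 arrays (8 residual and 2.70 prior degrees of freedom), two-sided, with Benjamini-Hochberg adjustment over 26397 genes at 0.05. The script was tested on simulated data. Alternatives are given in the closing section. Per-array values are given for the 3 members with the smallest p in IIAEK in wild type, IIAEK in knockout and knockout under vehicle, and for Hmgcs1, Sqle, Insig1, Insig2, Srebf2 and Scap. Others were named after their values were seen. At most 2 genes of a further list, by smallest p, are named. The members, lists and tests were chosen with earlier results of these data known. One label gives weeks where the others give 14 days, and days were used. The number of arrays limits the precision.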

Additional observations from a re-analysis of the deposited data

How the results depend on the processing

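No member was called in the main comparisons. The alternatives that called any were the ones that left out replicate 1 of wild-type vehicle or replicate 2 of knockout vehicle. Those replicates were the vehicle arrays that did not stand apart. Leaving out each array in turn gave 0 to 3909 genes and 0 to 9 members called for IIAEK in wild type, 0 to 6 genes and 0 members in knockout, 1 to 2 genes and 0 members for knockout under vehicle, 0 to 4 genes and 0 members for knockout under IIAEK, 0 to 1 genes and 0 members for the interaction, and 0 to 6505 genes and 0 to 15 members for the average. The members' median log2 change ranged from 0.29 to 0.72, 0.16 to 0.43, -0.0295 to 0.42, -0.10 to 0.0288, -0.39 to 0.0799 and 0.27 to 0.52 in the same order. Replicate numbers did not pair the samples (correlations of -0.55 to 0.65), and the replicate block called 0 genes for IIAEK in wild type and 0 for knockout under IIAEK. The slide as a block called 0 and 0 as well. Slide 2 alone called 0 genes for IIAEK in wild type, 1 in knockout, 0 for knockout under IIAEK and 4 for the average, with medians of 0.51 for knockout under vehicle and -0.53 for the interaction. Normexp correction called 2 genes for knockout under vehicle and turned the median for knockout under IIAEK to -0.0348, and the mean over a gene's probes called 0 there and turned it to -0.00372. With no filter 2, 1, 2, 0 and 1 genes were called for IIAEK in wild type, IIAEK in knockout, knockout under vehicle, knockout under IIAEK and the average, and with only the groups compared 0, 1, 0 and 10 for the first 4 (the interaction and the average use all groups). Without the 4 vehicle arrays that stood apart, chosen after the data were seen, the medians were 0.15, -0.11 and -0.0355 for IIAEK in wild type, in knockout and on average, and 60, 10, 1 and 1 genes were called for knockout under vehicle, knockout under IIAEK, the interaction and the average. The cause of these shifts was not tested. Over 24 alternatives, 14 of 26 members kept their sign for IIAEK in wild type, 10 in knockout and 6 for knockout under vehicle. Some alternatives could not change a sign, because they leave the difference of group means as it is. These include no filter, the slide and replicate blocks, only the groups compared, and leaving out an array of a group not compared. The counts therefore rest on the other alternatives. With 3 arrays a group, changes smaller than the spread between vehicle mice could not be read.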
